A study of Tursiops truncatus with 17 samples.

Results

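A set of genes that mark brain endothelium and its barrier were followed in the cerebral cortex of bottlenose dolphins (Tursiops truncatus). They were chosen by name: FLT1, KDR, TEK, CDH5, PECAM1, CLDN5, VWF, SLCO1A2, ABCB1 and MFSD2A. Of these 10 genes, 9 matched exactly 1 row each among the 21265 genes of the files, and no row bore the name PECAM1, an adhesion molecule of endothelium, platelets and leukocytes, which is not analysed here. All 9 passed the filter on low values and were tested among 13552 genes. The cortex came from 17 dolphins, each of which gave 1 library: 8 belong to the non-bloom group and 9 to the bloom group. The words bloom and non-bloom are those of the labels and name the season in which the brain was collected. All carry the genotype label WT and came from frozen archived necropsy tissue. The labels give no sex, age, date or body condition, so differences of that kind between the groups cannot be told apart from season. Numbers within a group follow the order of the sample records and are only names.

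Endothelial cells line the brain's capillaries and form the blood-brain barrier. Tight junctions seal the clefts between neighbouring cells, efflux pumps return lipid-soluble compounds to the blood, carriers admit chosen nutrients, and transport by vesicles is kept low. Growth factor receptors of the VEGF and angiopoietin families maintain these vessels, and Wnt signals from neural cells induce and keep their barrier character. In whole cortex endothelium is a small share of the tissue, and a lower value of its genes can reflect fewer endothelial cells or less RNA per cell, which bulk samples cannot tell apart.

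In the bloom season SLCO1A2, a transporter of organic anions, was the only one of the 9 genes to pass limma's test, as higher. Its median was 34.2 in bloom against 8.32 in non-bloom dolphins, or 4.11 times as high, and its log2 change was 1.48 (SE 0.46, adjusted p = 0.0492). All values are the deposited normalised values, in which reads are divided by a scaled library size; gene lengths are not used, so levels are not compared between genes. Changes were computed after adding 1 and taking log2, which understates those of low genes. A gene was called changed at an adjusted p under 0.05 in limma's test over all genes (Benjamini-Hochberg), and 9.16% of all genes tested were called, 4.47% of all as higher in bloom and 4.69% as lower. The dolphins of the bloom group differed widely from each other. The 9 genes also tended to be high or low together in a dolphin, so they are not 9 separate observations. All 9 log2 changes were positive, against 49.7% of all genes tested, with a median of 0.45 against -0.0034. By edgeR the median was 1.07 and by DESeq2 1.08, against 0.031 and 0.036 for all genes. The fitted change of FLT1 was 1.58 by edgeR against 0.71 by limma, that of CLDN5 1.07 against 0.40 and that of CDH5 0.92 against 0.25. CDH5 was at -0.085 by limma with a pseudocount of 0.1 in place of 1. edgeR's quasi-likelihood test on the recovered reads called SLCO1A2 and KDR, 2 of 9, where it called 8.29% of all genes, 6.10% as higher and 2.19% as lower. DESeq2 called 3 of 9, FLT1 besides, where it called 23.4% of all genes and 14.4% as higher. At an unadjusted p under 0.05 limma had 2 of the 9 higher and none lower, against 16.4% and 19.0% of all genes tested.

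Depth and quality differed between libraries. Recovered totals ran from 7680050 to 15635292 reads. Bloom 5, bloom 6 and bloom 9 stood apart from the other 14 libraries, with 57.0%, 33.5% and 77.2% of their reads from the mitochondrial genome, while the share was 1.47% to 22.1% elsewhere. Bloom 9 had 1753299 reads left for all other genes, and a value of 3 reads, the limit that a count of 0 allows, was 1.71 there against 0.158 to 0.597 in the other libraries. The labels give RNA integrity only as a summary over all samples. As a check of the labelled tissue, neuronal, astrocyte and oligodendrocyte markers were found in every library, while of 6 choroid plexus markers TTR, FOLR1, CLIC6 and KCNE2 were below the filter on low values, AQP1 had no row, and KL did not pass between seasons by limma (log2 change -0.48, lower at an unadjusted p under 0.05) or edgeR.

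Among the receptors of vascular growth factors, FLT1 encodes VEGFR1, which binds VEGF tightly and limits its signal. Its normalised values in non-bloom dolphins ran from 48.5 over a median of 91.6 to 182, and in bloom dolphins from 9.72 over a median of 247 to 799. No bloom dolphin lay within the non-bloom range: bloom 1, 2, 3, 5, 6 and 7 were above it and bloom 4, 8 and 9 below it. Bloom 1, 2, 3 and 7 held nearly the same level, 253, 247, 259 and 246, and bloom 4, 8 and 9 held 40.0, 25.9 and 9.72. Such a pattern, with every bloom value outside the non-bloom range and some on each side, occurred in 0.369% of the genes tested. This count was made after the FLT1 values had been seen. The log2 change was 0.71 (SE 0.72, adjusted p = 0.487 by limma), with a 95% interval from -0.81 to 2.22. It was 1.18 without bloom 9, 0.41 without bloom 5 and 0.40 without bloom 6, and passed in none of these fits.

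KDR encodes VEGFR2, the receptor that carries most of the VEGF signal in endothelium. Its values were 9.78 to 27.0 in non-bloom dolphins with a median of 15.5, and 11.3 to 111 in bloom dolphins with a median of 30.1. Of the 9 bloom dolphins 6 lay above the highest non-bloom value, and none lay below the lowest. The log2 change was 1.11 (SE 0.37) and missed the threshold by limma (adjusted p = 0.0585), while edgeR gave adjusted p = 0.0385. By limma KDR passed when bloom 1, bloom 4, bloom 8 or bloom 9 was left out, with adjusted p from 0.0242 to 0.0491.

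TEK encodes TIE2, the receptor of the angiopoietins. Non-bloom dolphins held 10.3 to 36.4 with a median of 15.0, and bloom dolphins 3.43 to 125 with a median of 28.7. Bloom 2, 5, 6 and 7 were above every non-bloom dolphin, bloom 8 and 9 below every one, and the other 3 within the range. The log2 change of 0.64 (SE 0.51, adjusted p = 0.370 by limma) was smaller than the SD between bloom dolphins on that scale (1.49) and close to that between non-bloom dolphins (0.63). It was 0.96 without bloom 9 and 0.35 without bloom 5.

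**Figure D1:**
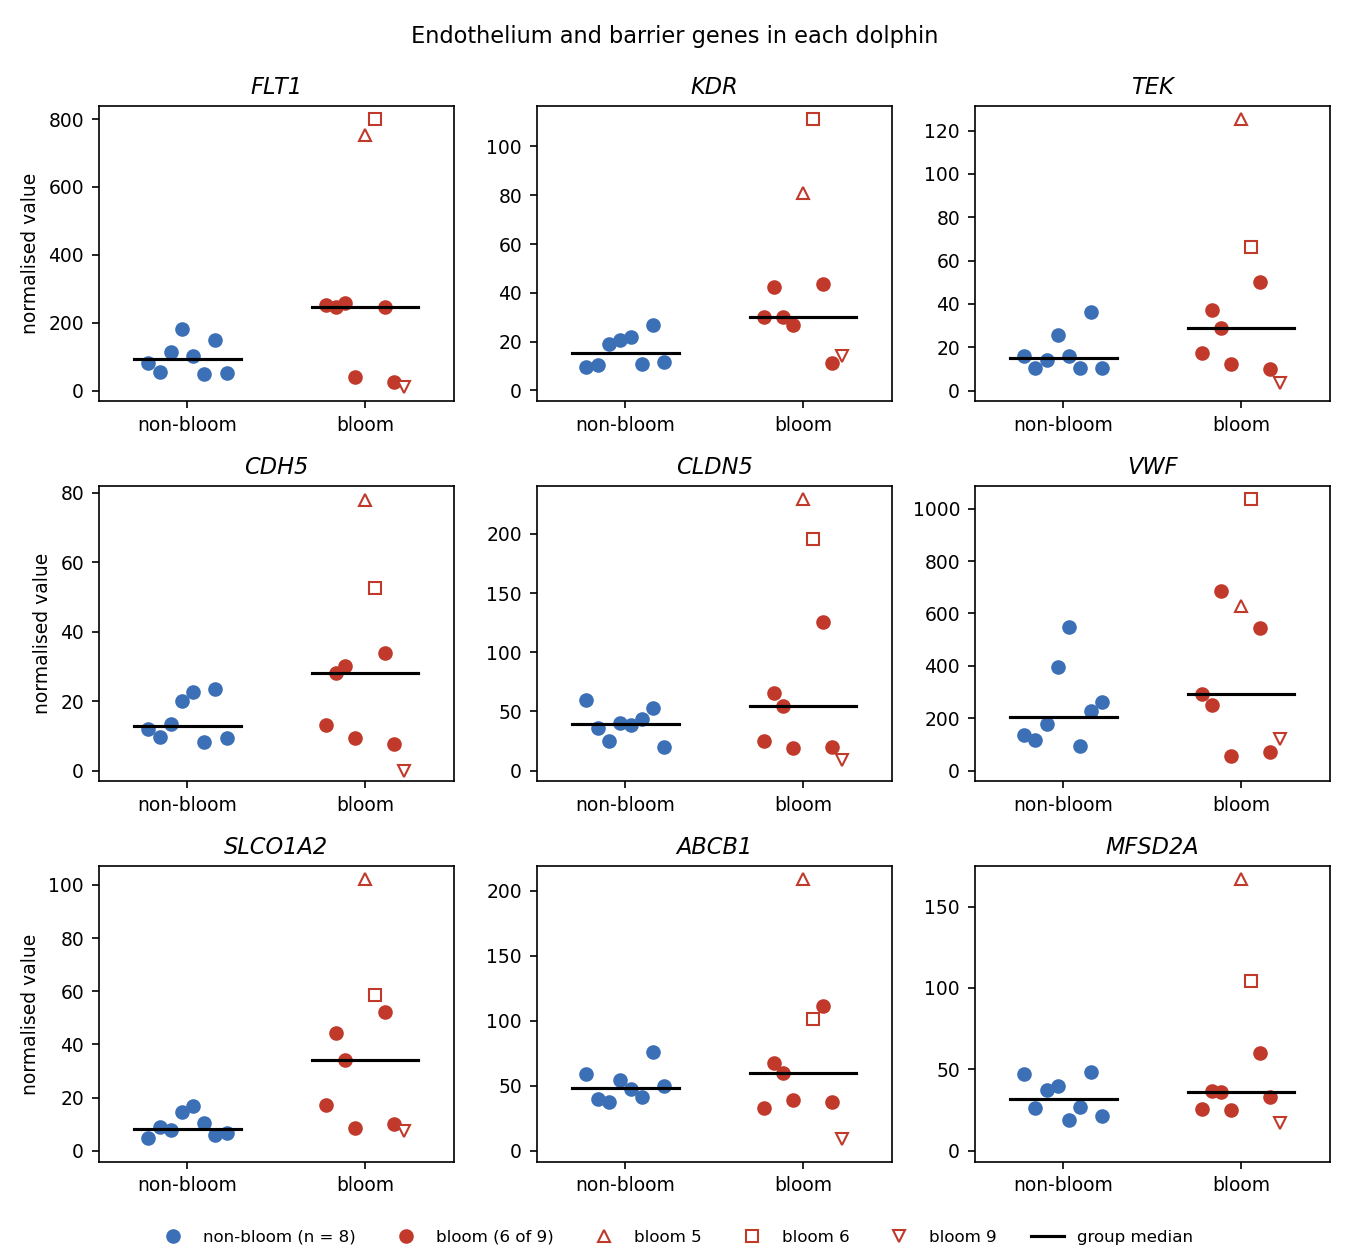
Deposited normalised value (linear vertical axis, scale set for each gene) of the 9 genes in each dolphin by season, with the group median as a line; open symbols are bloom 5, bloom 6 and bloom 9. SLCO1A2, KDR and FLT1 have 6 of 9 bloom dolphins above the highest non-bloom dolphin, while every gene has bloom dolphins inside or below the non-bloom range.

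The junction genes CDH5 and CLDN5 did not pass. CDH5 encodes VE-cadherin, which joins neighbouring endothelial cells at adherens junctions. It ran from 8.21 to 23.4 with a median of 12.8 in non-bloom dolphins and from 0 to 78.0 with a median of 28.0 in bloom dolphins. Bloom 9 had no CDH5 read, which at its depth allows a value of up to 1.71, and the log2 change was 0.25 with that dolphin (SE 0.63, adjusted p = 0.791 by limma) and 0.77 without it. CDH5 did not pass without bloom 9 either (adjusted p = 0.180), and its change was -0.022 without bloom 5 and 0.048 without bloom 6.

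CLDN5, claudin-5, is the main sealing protein of tight junctions in brain endothelium. Its annotated row spans only 657 bases. Its values were 19.9 to 59.9 with a median of 39.5 in non-bloom dolphins and 8.57 to 229 with a median of 54.2 in bloom dolphins. Bloom 5, 6, 7 and 2 were above the non-bloom range at 229, 196, 126 and 65.6, bloom 4 and bloom 9 were below it, and the log2 change was 0.40 (SE 0.54, adjusted p = 0.599 by limma). That change was 0.13 without bloom 5, 0.16 without bloom 6, 0.24 without bloom 7 and 0.70 without bloom 9. Bloom 1, which was high for FLT1, held only 25.4 of CLDN5.

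VWF encodes von Willebrand factor, which endothelial cells and platelets store and release to bind platelets at injured vessels. Its values were 94.4 to 547 with a median of 203 in non-bloom dolphins, and 54.7 to 1037 with a median of 291 in bloom dolphins. Only bloom 3, 5 and 6 exceeded the highest non-bloom dolphin, and bloom 4 and 8 lay below the lowest. The log2 change was 0.39 (SE 0.55, adjusted p = 0.621 by limma), and without bloom 5, 6 and 9 it was 0.07 (SE 0.54). With 1 library left out it ran from 0.15 (without bloom 6) to 0.68 (without bloom 4), and it was over 1.5 times lower without non-bloom 6 or bloom 3 or 5 too, and over 1.5 times higher without non-bloom 5 or bloom 8. Of 8 platelet markers, 5 had a row (PF4, PPBP and GP9 had none), and ITGA2B alone passed the filter. The summed value of those 5 was 2.29 to 9.49 in non-bloom and 4.63 to 27.4 in bloom dolphins. ITGA2B did not pass by limma (log2 change 0.95, higher at an unadjusted p under 0.05), while edgeR called it higher (log2 change 1.10). The part of platelets in the VWF values was not tested.

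Of the transporters, SLCO1A2 takes up organic anions, steroid conjugates and drugs, and in human brain its transcript is found in oligodendrocytes as well as endothelium. Its values were 4.77 to 16.8 with a median of 8.32 in non-bloom dolphins, and 7.43 to 102 with a median of 34.2 in bloom dolphins. Bloom 5, 6, 7, 2, 3 and 1 lay above every non-bloom dolphin, at 102, 58.4, 52.2, 44.2, 34.2 and 17.2, and bloom 4, 8 and 9 lay within the non-bloom range. The group means were 9.47 ± 4.26 (SD, n = 8) and 37.2 ± 31.2 (SD, n = 9), and 8 of 9 bloom dolphins were above the non-bloom median. By edgeR the log2 change was 1.97 (adjusted p = 0.0286).

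The SLCO1A2 call was close to the threshold. It was kept by limma when bloom 1, 4, 8 or 9 was left out, and lost without any other single library, that is without each of non-bloom 1 to 8 and bloom 2, 3, 5, 6 and 7, where adjusted p was 0.0524 to 0.0930. The log2 change itself ran from 1.24 to 1.69 over these 17 fits. It was 1.26 without bloom 5, 6 and 9 together (SE 0.38, 95% interval 0.45 to 2.06), with adjusted p = 0.0798 by limma and adjusted p = 0.0561 by edgeR.

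ABCB1 encodes P-glycoprotein, the main efflux pump of the barrier. It was at 37.2 to 76.2 with a median of 48.6 in non-bloom dolphins, the narrowest spread of the 9 genes there (SD 0.33 in log2 units), and at 9.14 to 209 with a median of 59.8 in bloom dolphins. MFSD2A carries lipids with docosahexaenoic acid into the brain and restrains transport by vesicles. It was at 18.8 to 48.1 with a median of 31.8 in non-bloom and at 17.1 to 167 with a median of 35.9 in bloom dolphins. Bloom 5, 6 and 7 alone exceeded the non-bloom range in each of these genes, and bloom 9 was below it in both, joined by bloom 1 for ABCB1. The log2 changes were 0.15 for ABCB1 (SE 0.42, adjusted p = 0.816) and 0.45 for MFSD2A (SE 0.37, adjusted p = 0.378), both by limma, with 95% intervals from -0.73 to 1.02 and from -0.32 to 1.22. The change of MFSD2A was 0.21 without bloom 5 and 0.29 without bloom 6. That of ABCB1, near 0, ran from -0.092 without bloom 5 to 0.45 without bloom 9.

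Without bloom 5, 6 and 9 none of the 9 genes passed, by limma (2 at an unadjusted p under 0.05) or by edgeR (2 likewise), where 2.34% and 1.67% of all genes were called (1.68% and 1.33% as higher). The log2 changes stayed positive for all 9, against 51.6% of all genes tested, with a median of 0.31 against 0.011. CLDN5, VWF, ABCB1 and MFSD2A were then between 0.07 and 0.13, while KDR was at 0.84 (SE 0.29, adjusted p = 0.109 by limma).

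**Figure D2:**
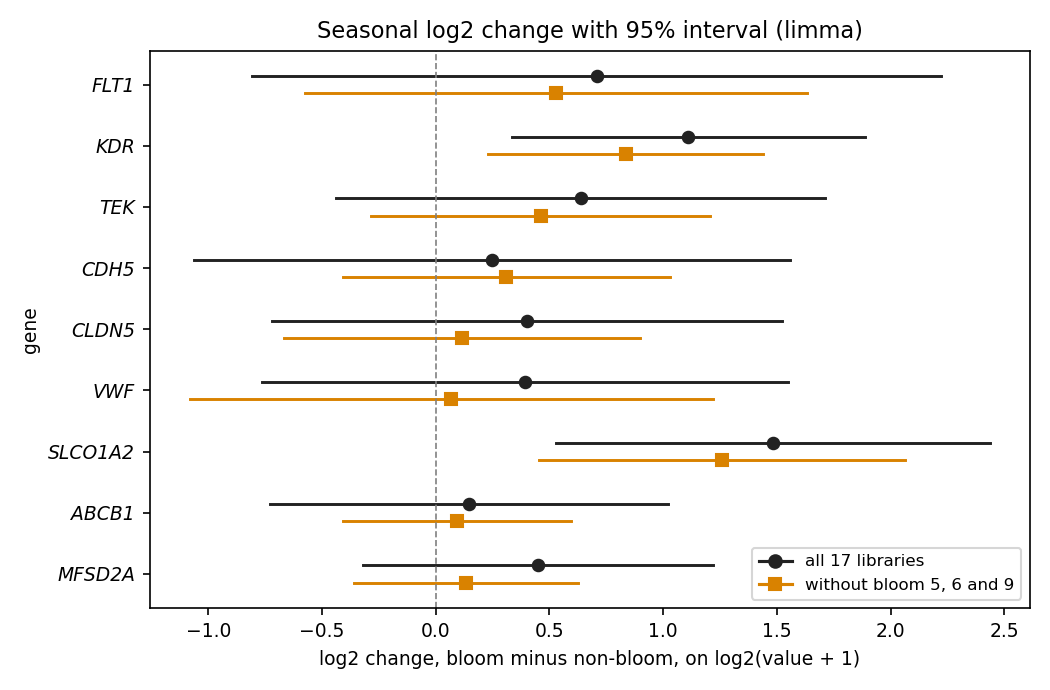
Log2 change of each gene (bloom minus non-bloom, on log2(value + 1)) with its 95% interval from limma, for all 17 libraries (black circles) and without bloom 5, 6 and 9 (orange squares). The intervals of SLCO1A2 and KDR lie above 0 in both fits and those of the other 7 genes include 0; the intervals are not adjusted for the number of genes tested.

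The 9 genes tended to be high or low together in a dolphin, with exceptions. Bloom 1 was above every non-bloom dolphin for FLT1, KDR and SLCO1A2 and below every one for ABCB1. Bloom 5 was above every non-bloom dolphin in all 9 genes and so was bloom 6, and bloom 7 in 8 of them. Bloom 5 and bloom 6 were also high in mitochondrial reads, with 57.0% and 33.5%, while bloom 7, with 19.5%, lay within the non-bloom range. Non-bloom 1, with 22.1%, exceeded the non-bloom median in only 4 of the 9 genes. Bloom 9, with the highest mitochondrial share, was below every non-bloom dolphin in 6 of the 9 genes. Bloom 8 and bloom 4, with the lowest mitochondrial shares (1.47% and 4.63%), were below every non-bloom dolphin in 4 and 3 genes. The part of RNA quality or mitochondrial content in these levels was not tested.

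**Figure D3:**
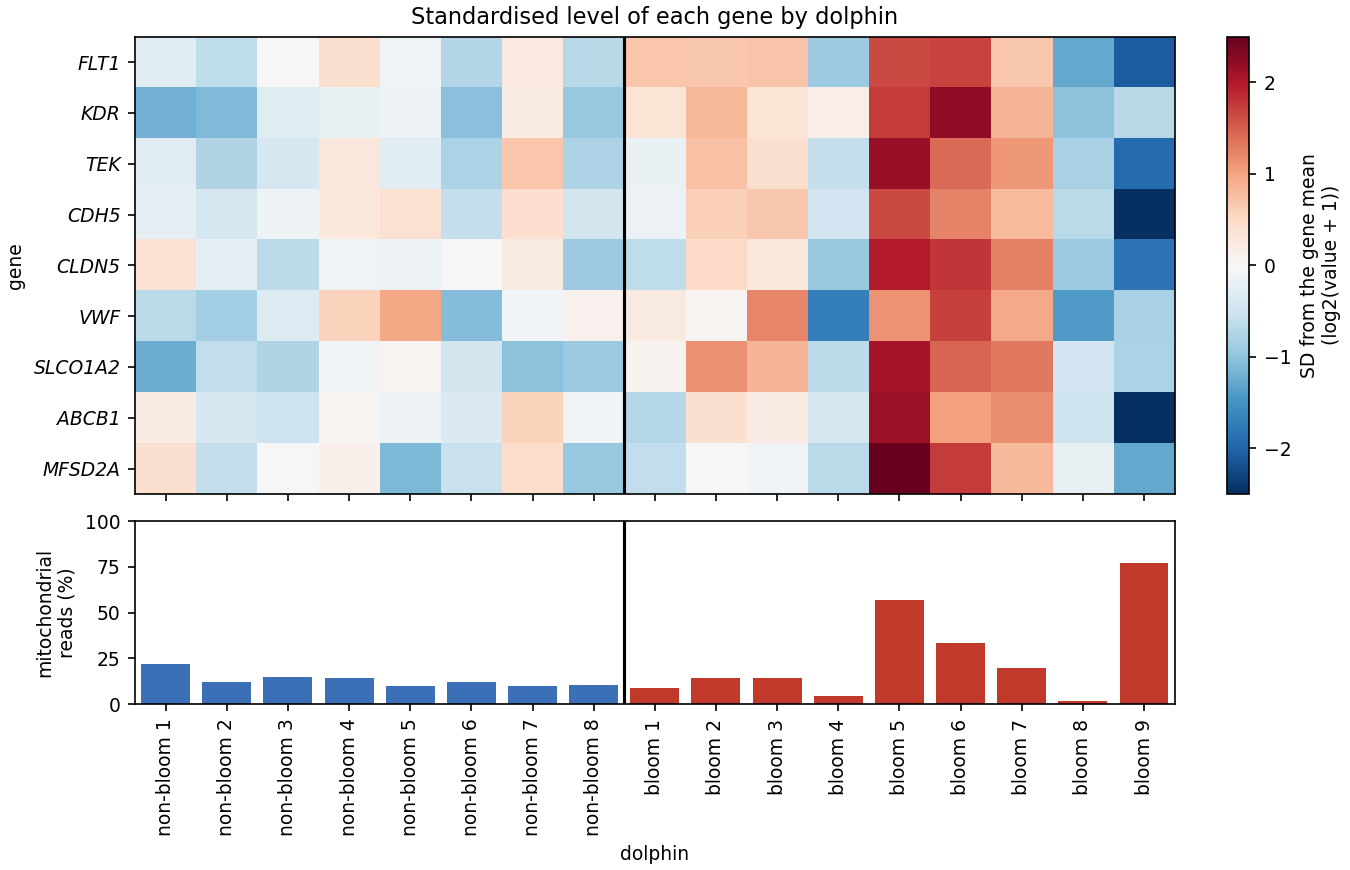
Standardised level of the 9 genes (upper panel, SD from the gene's mean over 17 dolphins on log2(value + 1)) and share of reads from the mitochondrial genome (lower panel, percent) in each dolphin, with non-bloom dolphins left of the line. Bloom 5 and bloom 6 are above every non-bloom dolphin in all 9 genes, and bloom 9, with 77.2% mitochondrial reads, is below them in 6.

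The bloom dolphins were more scattered than the non-bloom dolphins in every one of the 9 genes. On the log2 scale the SD within the group went from 0.72 to 2.17 for FLT1, from 0.56 to 1.31 for SLCO1A2 and from 0.33 to 1.26 for ABCB1. Over all genes tested the median SD was 0.29 in non-bloom and 0.50 in bloom dolphins, and 85.7% of genes had the larger SD in bloom. Without bloom 5, 6 and 9 the median SD over all genes was 0.29 in the bloom group as well, and those of the members were smaller than with all 9 but mostly above non-bloom: 1.52 for FLT1, 1.06 for SLCO1A2, 1.07 for CLDN5 and 0.65 for ABCB1. MFSD2A was the exception among the 9, with 0.50 in non-bloom and 0.45 in these 6 bloom dolphins. The difference in spread was not tested.

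Because the genes tended to go up and down together, each was also set against the mean of the other 8 in the same dolphin. SLCO1A2 had the largest difference between the seasons of the 9: its level relative to the others was -1.98 ± 0.66 in non-bloom (SD, n = 8) and -1.01 ± 0.38 in bloom dolphins (SD, n = 9), a difference of 0.97 in log2 units. All 9 bloom dolphins were above the non-bloom median of -1.87 and 6 were above the highest non-bloom dolphin. The difference was 0.94 without bloom 5, 6 and 9. Bloom 4, 8 and 9, whose SLCO1A2 values were within the non-bloom range, had relative levels of -1.41, -1.01 and -0.32. That of bloom 4 was within the range of non-bloom relative levels, whose highest was -1.26. That of bloom 9 rests on 13 SLCO1A2 reads, with 6 reads for TEK and 0 for CDH5 in the same dolphin.

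KDR came next, with relative levels of -1.13 ± 0.31 in non-bloom (SD, n = 8) and -0.58 ± 0.69 in bloom dolphins (SD, n = 9). Of the 9 bloom dolphins 6 were above the non-bloom median. ABCB1 moved the other way, from 0.69 ± 0.37 (SD, n = 8) to 0.16 ± 0.53 (SD, n = 9). TEK and FLT1 differed by 0.020 and 0.10, and CDH5, CLDN5, VWF and MFSD2A by -0.42, -0.25, -0.26 and -0.19. The difference of CDH5 was -0.13 without bloom 5, 6 and 9, of which bloom 9 had no CDH5 read. These relative levels are descriptions with no test, since the genes were chosen with earlier results known.

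**Figure D4:**
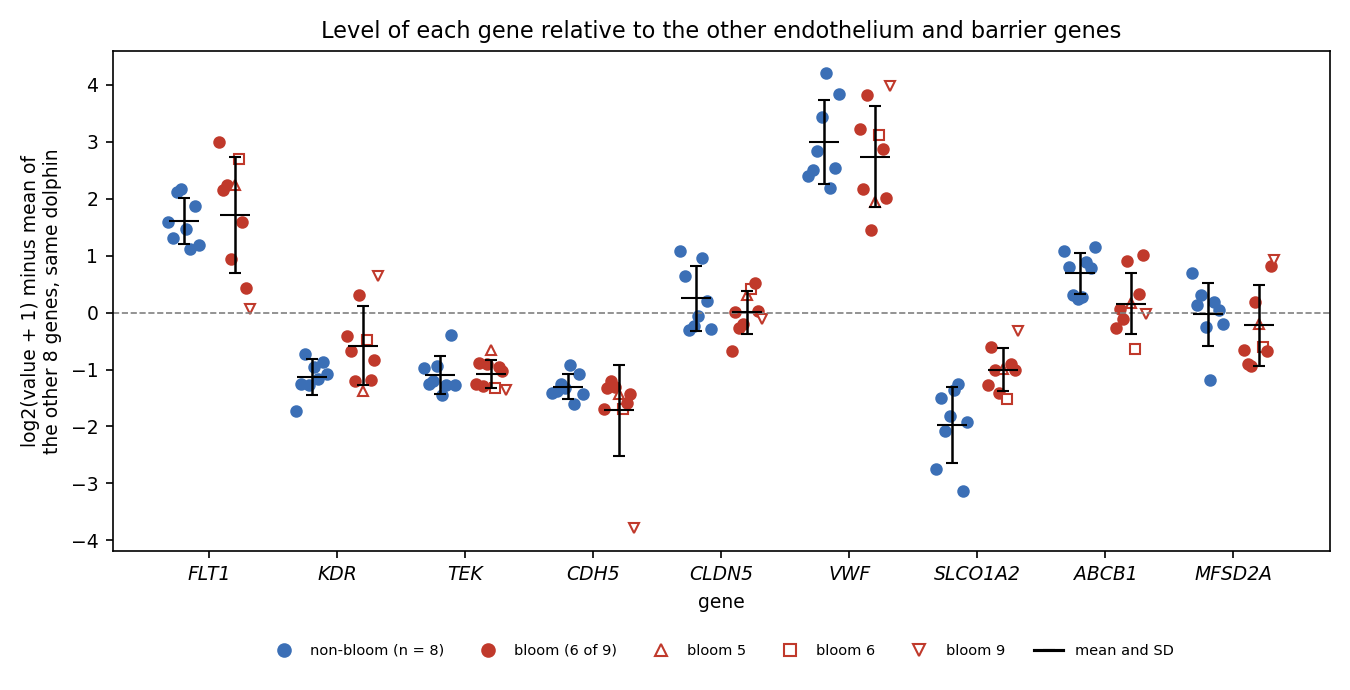
Level of each gene minus the mean of the other 8 genes in the same dolphin (log2(value + 1) units), by season, with mean and SD in black; open symbols are bloom 5, bloom 6 and bloom 9. SLCO1A2 is higher relative to the others in bloom (mean -1.01 against -1.98), and CDH5 in bloom 9, where it had no read, lies at -3.78.

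Relations between genes were computed over the 14 dolphins other than bloom 5, 6 and 9, since those libraries stood apart. Of 36 pairs among the 9 genes, 24 passed (Pearson r, two-sided permutation test, adjusted p under 0.05 over 36 pairs), with r from 0.19 to 0.93 and a median of 0.67. The closest pair was TEK and CDH5 (r = 0.93, permutation p = 1e-05, the smallest the resamples can give; adjusted p = 0.00036; rho = 0.93, permutation p = 4e-05, adjusted p = 0.00144). It was followed by CLDN5 and ABCB1 (r = 0.87, permutation p = 0.0001, adjusted p = 0.0018; rho = 0.80, permutation p = 0.00105, adjusted p = 0.00876). Without the 2 dolphins farthest from the median these pairs had r = 0.91 and r = 0.77. MFSD2A was the least tied, with a median r of 0.48 with the other 8 genes, and its r with VWF was 0.19. When the 2 farthest dolphins were left out of every pair, 13 pairs passed, 12 of them among the 24, while 12 dolphins remained for each test. The median r of the 36 pairs was then 0.63. As Spearman rho 16 of the 24 passed.

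Levels of marker lists, for endothelium and for other cell types, moved along with some of these genes. Against the mean log2 level of other endothelial markers (10 of 13 with a row), 8 of the 9 genes passed, from r = 0.72 for CLDN5 to r = 0.92 for FLT1 (permutation test, adjusted over 54 relations), and MFSD2A did not (r = 0.55, adjusted p = 0.103, permutation). Without the 2 farthest dolphins FLT1, TEK, CDH5 and VWF kept this relation, with r = 0.95, 0.86, 0.85 and 0.80. That of SLCO1A2 (r = 0.76, permutation p = 0.00191, adjusted p = 0.0172; rho = 0.66, permutation adjusted p = 0.0528) fell to r = 0.52 and no longer passed.

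SLCO1A2 and KDR were the only genes whose relation with the oligodendrocyte markers passed, at r = 0.65 (permutation adjusted p = 0.0371; rho = 0.64, permutation adjusted p = 0.0592) and r = 0.72 (permutation adjusted p = 0.0231; rho = 0.73, permutation adjusted p = 0.0286). With the season means removed from both measures r was 0.38 and 0.53, with adjusted p = 0.319 and 0.122 (permutation). Neither passed without the 2 farthest dolphins, where r was 0.67 and 0.77 over 12 dolphins and adjusted p = 0.146 and 0.0621 (permutation). Against the neuronal markers all 9 genes had negative r, from -0.68 for TEK to -0.36 for CLDN5, and 3 passed (TEK, KDR and CDH5). All 3 missed the threshold as Spearman rho (permutation adjusted p = 0.0876, 0.0528 and 0.0825), with the season means removed (0.0615, 0.145 and 0.0690) and without the 2 farthest dolphins (0.225, 0.245 and 0.264). Pericyte and smooth muscle markers passed with KDR, FLT1 and TEK (r = 0.76, 0.71 and 0.68; permutation adjusted p = 0.0178, 0.0267 and 0.0309). The relation of KDR also passed as rho (0.81, permutation adjusted p = 0.00896) and with the season means removed (permutation adjusted p = 0.0388), but not without the 2 farthest dolphins (r = 0.66, permutation adjusted p = 0.160). That of FLT1 passed as rho (permutation adjusted p = 0.0267) and with the season means removed (permutation adjusted p = 0.0388), while that of TEK passed neither way, and neither passed without the 2 farthest dolphins (permutation adjusted p = 0.176 and 0.239). Astrocyte markers passed with KDR, TEK and CDH5 (r = 0.68, 0.65 and 0.64; permutation adjusted p = 0.0267, 0.0371 and 0.0371), and none of these 3 passed in any of those 3 settings. No relation with microglial markers passed (r from -0.26 to 0.21).

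**Figure D5:**
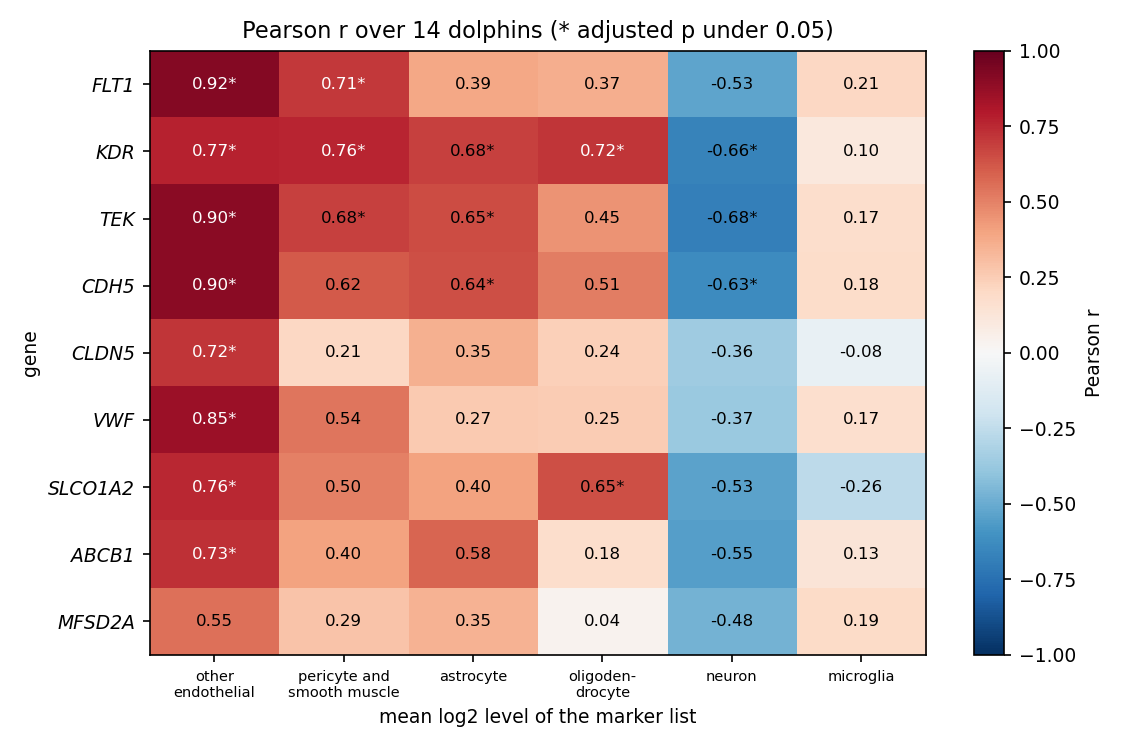
Pearson r over 14 dolphins between each gene and the mean log2 level of 6 marker lists (colour and number), with an asterisk where the permutation p adjusted over 54 relations was under 0.05. The column of other endothelial markers has the highest r for every gene, and r is negative for every gene in the neuron column.

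The marker lists themselves differed between the seasons as follows. Oligodendrocyte markers summed to 1721 to 8187 in non-bloom and 4523 to 19259 in bloom dolphins, and 2 of 11 rose by limma, ERMN and MOG, of which edgeR called ERMN only (adjusted p = 0.0578 for MOG). The highest bloom sum was 8813 without bloom 5, 6 and 9. Astrocyte markers summed to 1812 to 3315 and 1413 to 10253, and none of 11 passed by limma (5 higher at an unadjusted p under 0.05), while edgeR called 3. Neuronal markers summed to 7822 to 13165 and 2024 to 9696, and 1 of 11, SYT1, fell. Pericyte and smooth muscle markers summed to 25.5 to 249 and 61.9 to 271, and 1 of 12, the potassium channel gene KCNJ8, rose. At an unadjusted p under 0.05 by limma, 6 of 11 oligodendrocyte and 7 of 12 pericyte and smooth muscle markers were higher. At that level 8 of 11 neuronal markers were lower. Of all genes tested 16.4% were higher and 19.0% lower by this measure. At an adjusted p under 0.05 limma called 4.47% of all genes higher and 4.69% lower, and edgeR 6.10% and 2.19%. The part of tissue makeup in the endothelial values was not tested. With the mean level of the neuronal markers as a covariate the log2 change of SLCO1A2 was 0.72 (adjusted p = 0.573 by limma) and that of KDR 0.40 (adjusted p = 0.658). The other 7 genes then had negative log2 changes, from -0.68 for CDH5 to -0.33 for TEK. No call of a listed gene or marker named here was kept with that covariate or with the oligodendrocyte one. Only 3 and 6 of all genes tested passed in these 2 fits, so the loss of a call says little about a single gene. Many markers of both covariates differed between the seasons at an unadjusted p under 0.05 by limma. These fits therefore cannot separate tissue makeup from season. SYT1 is itself part of the neuronal covariate, and ERMN and MOG are part of the oligodendrocyte one.

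Markers of fibroblasts of the meninges summed to 8.53 to 117 in non-bloom and 32.0 to 131 in bloom dolphins, and 1 of 7 tested, the GABA transporter SLC6A13, rose. Leukocyte markers summed to 11.7 to 245 and 0.269 to 17.2, and S100A9 and S100A12 of neutrophils fell among 4 tested. PTPRC, CD3E, CD3D, MS4A1 and MPO were below the filter. Erythroid markers summed to 104 to 876 and 10.3 to 2447 (at most 360 without bloom 5, 6 and 9), and none of 3 passed by limma (0 at an unadjusted p under 0.05) or edgeR. Microglial markers summed to 15.7 to 301 and 17.1 to 45.6, and none of 7 passed by limma (2 lower at an unadjusted p under 0.05), while edgeR called CSF1R lower. Markers of lymphatic endothelium summed to 5.17 to 16.8 and 4.57 to 12.8, and none of 3 passed by either tool (0 at an unadjusted p under 0.05 by limma). Other endothelial markers summed to 114 to 221 and 114 to 679, and none of 10 passed by limma (1 higher at an unadjusted p under 0.05) or edgeR, with a median log2 change of 0.61.

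Most of these marker calls were close to the threshold too. S100A12 passed whichever library was left out. ERMN lost its call without non-bloom 2, 6 or 8, and SLC6A13 without these, non-bloom 1 or bloom 6, with adjusted p up to 0.0588 and 0.0646. KCNJ8, SYT1, S100A9 and MOG lost theirs in 9, 10, 11 and 12 of 17 fits, among them each that left out non-bloom 1, 2, 6, 7 or 8 or bloom 2, 6 or 7, with adjusted p up to 0.0757, 0.0760, 0.0708 and 0.0952. Of the others, bloom 5 ended the calls of KCNJ8, SYT1 and S100A9, non-bloom 3 those of SYT1, S100A9 and MOG, non-bloom 5 that of S100A9, and non-bloom 4, bloom 3 and bloom 9 that of MOG. Without bloom 5, 6 and 9 together SYT1 and S100A12 passed, at log2 changes of -0.82 and -2.82 (adjusted p = 0.0307 and 0.0346 by limma), but S100A12 missed the threshold by edgeR (adjusted p = 0.0540). KCNJ8 was then at 0.58 by limma (adjusted p = 0.102), and the calls of ERMN, MOG, S100A9 and SLC6A13 were lost (adjusted p = 0.0537, 0.0565, 0.0738 and 0.0808).

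Of 15 junction partners, 3 were called higher and none lower by limma, against 4.47% of all genes tested called higher. TJP1 and CGN, which encode scaffold proteins under the junction, were among the 3. TJP1 (ZO-1), which links claudins to the actin cytoskeleton in epithelia, endothelium and astrocytes, averaged 68.0 ± 12.0 (SD, n = 8) in non-bloom and 133 ± 38.8 (SD, n = 9) in bloom dolphins, and its log2 change was 0.92 (SE 0.17, adjusted p = 0.0151 by limma). All 9 bloom dolphins lay above the highest non-bloom dolphin, a separation in either direction that 0.657% of the genes tested showed. TJP1 passed whichever library was left out, and without bloom 5, 6 and 9 (log2 change 0.88, adjusted p = 0.0137). It did not pass with the neuronal or the oligodendrocyte marker level as a covariate (adjusted p = 0.189 and 0.0977 by limma). In these fits 3 and 6 of all genes tested passed.

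CGN, the junction protein cingulin, averaged 2.85 ± 0.962 (SD, n = 8) in non-bloom and 6.28 ± 2.21 (SD, n = 9) in bloom dolphins (log2 change 0.88, adjusted p = 0.0349 by limma). Of the 9 bloom dolphins 8 were above every non-bloom dolphin. Leaving out any of non-bloom 1, 2, 6 and 8 and bloom 2, 5, 6 and 7 ended its call, with adjusted p of 0.0543 to 0.0760, and adjusted p was 0.116 without bloom 5, 6 and 9 together. The median log2 change of the 15 genes was 0.47, and edgeR called 5 of them higher, JAM2 and MARVELD2 among them, against 6.10% of all genes tested.

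The Wnt route that maintains the barrier had 3 of 14 genes higher and none lower by limma, against 4.47% of all genes tested called higher. NDP, the ligand norrin, averaged 5.83 ± 3.09 (SD, n = 8) in non-bloom and 20.5 ± 16.5 (SD, n = 9) in bloom dolphins, and its log2 change was 1.38 (SE 0.43, adjusted p = 0.0498 by limma). LRP5, a co-receptor, went from 15.9 ± 3.83 to 32.5 ± 14.9, and NKD1, an inhibitor that Wnt signalling itself induces, from 13.8 ± 5.16 to 25.6 ± 6.21. Without bloom 5, 6 and 9 NKD1 passed by limma (log2 change 0.82, adjusted p = 0.0495) but not by edgeR (adjusted p = 0.0684), and leaving out non-bloom 2, 6 or 8 ended its call (adjusted p 0.0564 to 0.0625). The call of LRP5 was lost in 10 of 17 fits (adjusted p up to 0.0717) and kept without non-bloom 4 or 5 or bloom 1, 3, 4, 8 or 9. That of NDP was lost in 14 fits (adjusted p up to 0.0961) and kept without bloom 1, 4 or 8. Without bloom 5, 6 and 9 together the log2 changes of LRP5 and NDP were 0.62 and 0.69 (adjusted p = 0.0959 and 0.211). The median of the 14 genes was 0.75, and edgeR called 5 higher, FZD4 and ADGRA2 besides, against 6.10% of all genes tested.

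Among 13 genes of VEGF and angiopoietin signalling, VEGFB, a ligand of FLT1 but not of KDR, rose from 46.2 ± 7.22 (SD, n = 8) to 110 ± 69.5 (SD, n = 9), by 1.02 on the log2 scale (SE 0.28, adjusted p = 0.0413 by limma). Of the 9 bloom dolphins 8 were above every non-bloom dolphin. Its call was kept without non-bloom 4 or bloom 1, 3, 4, 8 or 9 and lost in the other 11 fits (adjusted p 0.0558 to 0.0814), and without bloom 5, 6 and 9 the log2 change was 0.52 (adjusted p = 0.0851). No other gene of that list passed by limma or edgeR, and its median was 0.43. Each tool thus called 1 of 13 higher, where limma called 4.47% and edgeR 6.10% of all genes tested higher. In a list this short, 1 call says little about the list.

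Of 16 barrier transporters tested, SLC38A5, a glutamine transporter, rose from a mean of 13.7 ± 4.42 (SD, n = 8) to one of 43.5 ± 32.0 (SD, n = 9), by 1.35 on the log2 scale (SE 0.34, adjusted p = 0.0328 by limma). It also passed without bloom 5, 6 and 9 (log2 change 1.04, adjusted p = 0.0408), and leaving out any of the 8 libraries that ended the call of CGN ended its call (adjusted p 0.0558 to 0.0708). No other transporter of the list passed by either tool, and its median was 0.40. That is 1 of 16 by each tool, against 4.47% of all genes tested called higher by limma and 6.10% by edgeR. The count of 1 says little about the list.

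Of 9 Notch pathway genes HEY2, an effector of Notch in arteries, rose from 1.70 ± 0.948 (SD, n = 8) to 3.39 ± 1.01 (SD, n = 9), by 0.74 on the log2 scale (SE 0.21, adjusted p = 0.0420 by limma; adjusted p = 0.0586 by edgeR). Its call was kept without non-bloom 3 or 4 or bloom 1, 4, 8 or 9 and lost in the other 11 fits (adjusted p 0.0503 to 0.0867). Without bloom 5, 6 and 9 together the log2 change was 0.58 (adjusted p = 0.142). HEY2 was also low, with 7 to 58 reads per library, and a value of 3 reads in bloom 9 was 1.71. The median of the list was 0.58, and edgeR called HES1 instead. With 4.47% of all genes tested called higher by limma and 6.10% by edgeR, 1 of 9 by each tool says little about the list.

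In 4 further lists no gene passed by limma or edgeR. At an unadjusted p under 0.05 limma had 16.4% of all genes tested higher and 19.0% lower. The counts at that level in these 4 lists were near or under those shares. Of 13 genes of endothelial identity 2 were higher at an unadjusted p under 0.05 by limma, EGFL7 (log2 change 0.64, adjusted p = 0.0959) and EPAS1 (0.82, adjusted p = 0.127), and the median was 0.64. Of 12 transcription factors 1 was, LEF1 (log2 change 1.00, adjusted p = 0.0894), with ETS2 next at -0.62 (adjusted p = 0.157; -0.34 without bloom 9) and a median of 0.37. Of 12 genes of leukocyte adhesion and haemostasis 2 were, TIMP3 (log2 change 1.13, adjusted p = 0.107) and ADAMTS13 (0.42, adjusted p = 0.113), with a median of 0.37, while SELE and SELP were below the filter. Of 6 genes of caveolae and vesicle transport 1 was lower, PACSIN2 (log2 change -0.42, adjusted p = 0.0958), EHD2 was at 0.56 (adjusted p = 0.192) and the median was 0.52. PLVAP, a marker of leaky vessels without a barrier, was below the filter. By limma EGFL7 and ADAMTS13 passed without bloom 4 (adjusted p = 0.0312 and 0.0436), EPAS1 and TIMP3 without bloom 8 (adjusted p = 0.0479 and 0.0493), and LEF1 without bloom 8 or 9 (adjusted p = 0.0463 at most).

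The genes whose pattern was most like the mean of the 9 over the 14 dolphins, out of 12627 with a symbol, were NOS3 (r = 0.98, rho = 0.98), ACVRL1 (r = 0.96, rho = 0.95), SLC43A3 (r = 0.95, rho = 0.94), ADGRL4 (r = 0.94, rho = 0.93) and FGD5 (r = 0.94, rho = 0.87). They were picked for the highest r, so no test is given. None of these 5 passed between seasons by limma, with adjusted p from 0.0880 to 0.633. The 5 most like SLCO1A2 were other genes: CA5A (r = 0.92, rho = 0.85), RRAS (r = 0.92, rho = 0.83), DRC7 (r = 0.92, rho = 0.86), PRKD2 (r = 0.91, rho = 0.78) and ASAP3 (r = 0.89, rho = 0.83). Of these CA5A and ASAP3 rose, by 0.85 and 0.56 on the log2 scale (adjusted p = 0.0455 and 0.0397 by limma). The 5 were picked for likeness to SLCO1A2 over dolphins of both seasons. That choice favours a seasonal change like that of SLCO1A2, so these calls are no separate result. CA5A was also low, with a mean of 1.13 in non-bloom and 3.22 in bloom dolphins.

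No source used here names the genome build of the files' annotation, in which all 9 genes are protein coding. SLCO1A2 lies on GeneScaffold_2746 from 561923 to 605975, KDR on scaffold_106272 from 106140 to 148465, FLT1 on GeneScaffold_578 from 3420 to 148067 and TEK on GeneScaffold_1039 from 281791 to 384586. CLDN5 lies on GeneScaffold_484 from 175781 to 176437, CDH5 on GeneScaffold_2966 from 251479 to 274384 and VWF on GeneScaffold_3150 from 382633 to 517818. ABCB1 lies on GeneScaffold_1381 from 265189 to 366788 and MFSD2A on GeneScaffold_121 from 122955 to 132859. No sequence of these genes was used here.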

How the data were processed

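Each library's deposited file gives a normalised signal for every gene. Per the submitters' processing notes, Trim Galore 0.6.1 and STAR 2.5.2a were used. The sources used here do not name the counting tool, the genome build or the annotation. All nonzero deposited values (100%) were whole multiples, within 0.01, of the value of 1 read in their library, so reads were recovered and gave the depth. Floors of 3 reads cover counting error only. Rows were matched on either name column. Genes were kept by filterByExpr by group (minimum count 10, minimum total 15). The test was limma-trend 3.58.1 on log2(value + 1), season only, 17 libraries, in R 4.3.3; edgeR 4.0.16 and DESeq2 1.42.0 ran on recovered reads. Correlations used 100000 resamples. The labels name separate dolphins but no batch, and no comparison within batches was possible.

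The genes, lists, tests and alternatives were chosen with earlier results of these data known. The text names the members; of each pathway list up to 4 genes that passed, or the 2 with the smallest p where none did; up to 3 passing markers of each cell type; and the 5 genes most like each pattern. JAM2, MARVELD2, FZD4, ADGRA2, HES1, CSF1R and ITGA2B, which edgeR called, were named after their values were seen. The values of 1 junction gene are not reported here. Code was tested on simulated data.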

Additional observations from a re-analysis of the deposited data

How the results depend on the processing

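Over all genes 1241 passed, and 3173 by DESeq2, 560 with no filter, 320 by limma and 228 by edgeR without bloom 5, 6 and 9, 3 with the neuronal covariate (the mean level of these markers) and 6 with the oligodendrocyte one, and 61 to 2895 with 1 library left out (61 without non-bloom 2, 2895 without bloom 1). Of the 9 endothelium and barrier genes 1 passed, and 2 by edgeR, 3 by DESeq2 (which called 23.4% of all genes), and 0 with no filter, with a pseudocount of 0.1, with either covariate, and without bloom 5, 6 and 9 by limma or edgeR. It was 0 to 2 with 1 library left out. Relative log expression scaling and TMM sizes without mitochondrial reads kept the count at 1. With the neuronal covariate 7 genes had negative log2 changes: FLT1 -0.49, CLDN5 -0.59, VWF -0.45, ABCB1 -0.57, MFSD2A -0.34, TEK -0.33 and CDH5 -0.68, and EPAS1 was at -0.019. With the oligodendrocyte covariate VWF was at -0.055 and CDH5 at -0.24. CDH5 was at -0.085 with a pseudocount of 0.1, and without bloom 5 ABCB1 was at -0.092 and CDH5 at -0.022, against 0.45 and 0.77 without bloom 9. The cause of these changes was not tested. Of 54 relations with marker levels 19 passed, 8 as Spearman rho, 10 with season means removed, 4 without the 2 farthest dolphins and 27 over all 17 libraries (16 of them among the 19). Of 36 pairs 24 passed, 13 without the 2 farthest, 16 as Spearman rho and 36 over all 17 libraries. edgeR without bloom 5, 6 and 9 and the pair relations were added after the data were seen. No paired analysis was possible because each dolphin gave 1 library and the labels share no replicate number between seasons. Bloom 9 limits low genes, with 6 TEK reads and 0 CDH5 reads.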
